A study of Homo sapiens with 30 samples.

Results

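The genes described here are 10 members of the JUN, FOS and small MAF families of transcription factors, namely JUN, JUNB, JUND, FOS, FOSB, FOSL2, ATF3, MAFF, MAFG and MAFK. They were chosen by symbol among the 21112 genes quantified in each library. No measured value entered that rule, though earlier results of these data were known when the choice was made. RNA was sequenced from 4 diffuse large B-cell lymphoma (DLBCL) cell lines upon treatment with AZD8186, an inhibitor of the PI3Kβ and PI3Kδ isoforms, to follow gene expression after PI3K blockade. OCI-Ly10 and TMD8 represent the activated B-cell-like (ABC) subtype, HT and K422 the germinal center B-cell-like (GCB) subtype. AZD8186 was given at 0.5 µM and the controls received the solvent DMSO according to the sample labels, while the series description calls them untreated. Each line was sampled at 6, 12, 18 and 24 h, apart from TMD8, which lacks 12 h. This gave 30 libraries in 15 pairs of the same line and time, 7 ABC pairs and 8 GCB pairs. The labels give RPMI-1640 with 10% FCS for every library and name no engineered allele, whereas the study's methods name Iscove's medium for OCI-Ly10 and TMD8. If the methods hold, medium and subtype cannot be told apart. The methods also describe the lines as modified, for transduction, to carry a mouse ecotropic receptor and a tetracycline repressor from bacteria. Whether the sequenced cells carried these is not stated. Each condition was sequenced once and nothing states that time points came from separate cultures, so each p-value reflects just the variation among these libraries, and 2 lines stand for each subtype.

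JUN and FOS proteins carry a basic leucine zipper and form the dimers known as AP-1. JUN proteins pair with each other or with FOS proteins, whereas FOS proteins need a JUN partner. Many of these genes are early-response genes whose transcripts rise quickly and are short-lived, and JUND is known as the most constantly expressed JUN gene. ATF3 is a stress-induced relative that pairs with JUN proteins. The small MAF proteins lack an activation domain of their own and act as partners of NRF2, BACH1 and BACH2 at antioxidant and MAF response elements. In ABC DLBCL, signaling from the B-cell receptor is known to reach both NF-κB and JUN kinases.

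The start regions of the JUN genes are shown first, since JUN and JUNB fell in both ABC lines and JUND rose in both GCB lines. Sequences are RefSeq's (GRCh38.p14) and are numbered backward from the base before the RefSeq transcript start, which is -1. A window of 250 bases before the start was found for 9 of the 10 members, in 11 windows since ATF3 and MAFF have more than 1 start. Capitals mark the CCAAT box, the TATAA element and the motifs TGACGTCA and TGACATCA. The AP-1 site TGACTCA was searched as well, each motif on both strands.
JUNB, chr19:12791236-12791485, plus strand: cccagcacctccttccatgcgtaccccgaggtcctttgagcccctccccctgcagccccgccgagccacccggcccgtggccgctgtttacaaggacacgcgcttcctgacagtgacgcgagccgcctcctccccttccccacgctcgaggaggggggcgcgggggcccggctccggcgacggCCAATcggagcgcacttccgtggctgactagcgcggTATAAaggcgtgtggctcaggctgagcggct
JUND, chr19:18281623-18281872, minus strand: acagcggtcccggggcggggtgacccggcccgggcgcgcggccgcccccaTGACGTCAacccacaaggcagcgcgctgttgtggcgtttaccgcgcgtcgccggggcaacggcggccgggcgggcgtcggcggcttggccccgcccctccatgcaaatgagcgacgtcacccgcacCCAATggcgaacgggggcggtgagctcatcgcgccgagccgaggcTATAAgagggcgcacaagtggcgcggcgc
Both stretches end at the RefSeq start. For the members that share an 8-letter motif, 30 bases around it are given.
JUN, chr1:58784106-58784135, minus strand: gCCAATgggaaggccttggggTGACATCAt
ATF3, chr1:212565273-212565302, plus strand: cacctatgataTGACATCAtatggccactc
MAFF, chr22:38201929-38201958, plus strand: ggccgggtcggTGACGTCAccgcatgactg
The stretches of JUN and MAFF lie inside the longer gene bounds of GENCODE 29, those of JUNB, JUND and ATF3 before them. TGACATCA stood at -67 in JUN and at -123 in the first ATF3 window, and 2.37% of all 35116 windows held it on either strand. TGACGTCA, the cyclic AMP response element, stood at -200 in JUND and at -54 in the first MAFF window, against 1.65% of all windows. CCAAT was in 5 of the 11 member windows and in 32% of all windows. TATAA was likewise in 5 of 11, against 18.9% of all. TGACTCA was in 0 of the 11 windows and in 4.2% of all. A match is a string of letters and says nothing about binding.

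By GENCODE 29 on GRCh38, the 10 genes lie on 7 chromosomes and are protein-coding. JUN lies on the minus strand of chromosome 1 (58780788 to 58784327) and ATF3 on its plus strand (212565334 to 212620777). Chromosome 19 holds JUNB (12791496 to 12793315, plus), JUND (18279760 to 18281622, minus) and FOSB (45467995 to 45475179, plus). FOS lies on chromosome 14 (75278774 to 75282230, plus) and FOSL2 on chromosome 2 (28392448 to 28417312, plus). MAFF lies on chromosome 22 (38200767 to 38216511, plus), MAFG on chromosome 17 (81918270 to 81927714, minus) and MAFK on chromosome 7 (1530714 to 1543043, plus). Reads were counted over whole genes. Use of strand during counting is not given in the sources used here, so reads of an antisense transcript could not be told apart from those of a member.

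Libraries held 15820230 to 23579029 expected counts (median 18591638.5), and ribosomal RNA took 0.69% to 4.35% of them. CD79A, a B-cell receptor subunit that defines the lineage, stood at 561 to 1400 TPM in the ABC libraries and 1158 to 1707 TPM in the GCB libraries. T-cell, myeloid and stromal lists each summed to at most 5.20 TPM in any library of OCI-Ly10, TMD8 and HT. In K422 the T-cell list summed to 162 to 184 TPM over both treatments, from CD3D and CD3G, with CD2 and CD28 at 0. The K422 stromal list, nearly all DCN, summed to 98.1 to 127 TPM with DMSO and 154 to 187 TPM with AZD8186, with 4 of 6 genes at 0 in every K422 library. The part of these genes in the K422 values was not tested. The TMD8 library at 6 h with AZD8186 had the highest share of ribosomal RNA.

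In the DMSO controls the members differed widely between lines. JUN, the founding AP-1 subunit, and ATF3 were high in both ABC lines and low in both GCB lines. FOSB was higher in both GCB lines than in the ABC lines, though low throughout. JUN stood at 12.98, 16.1, 16.3 and 18.7 TPM in OCI-Ly10 at 6, 12, 18 and 24 h. It stood at 17.6, 14.6 and 17.0 TPM in TMD8 at 6, 18 and 24 h. HT held 1.78 to 2.61 TPM and K422 0.87 to 1.82 TPM. The ABC and GCB ranges did not overlap. OCI-Ly10 and TMD8 could not be ordered (log2 difference 0.01, SE 0.14, adjusted p = 0.946), and K422 lay below HT by 0.66 on the log2 scale (SE 0.18, adjusted p = 0.00337). These tests used edgeR's quasi-likelihood test on the 15 DMSO libraries with line and time as terms.

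**Figure D1:**
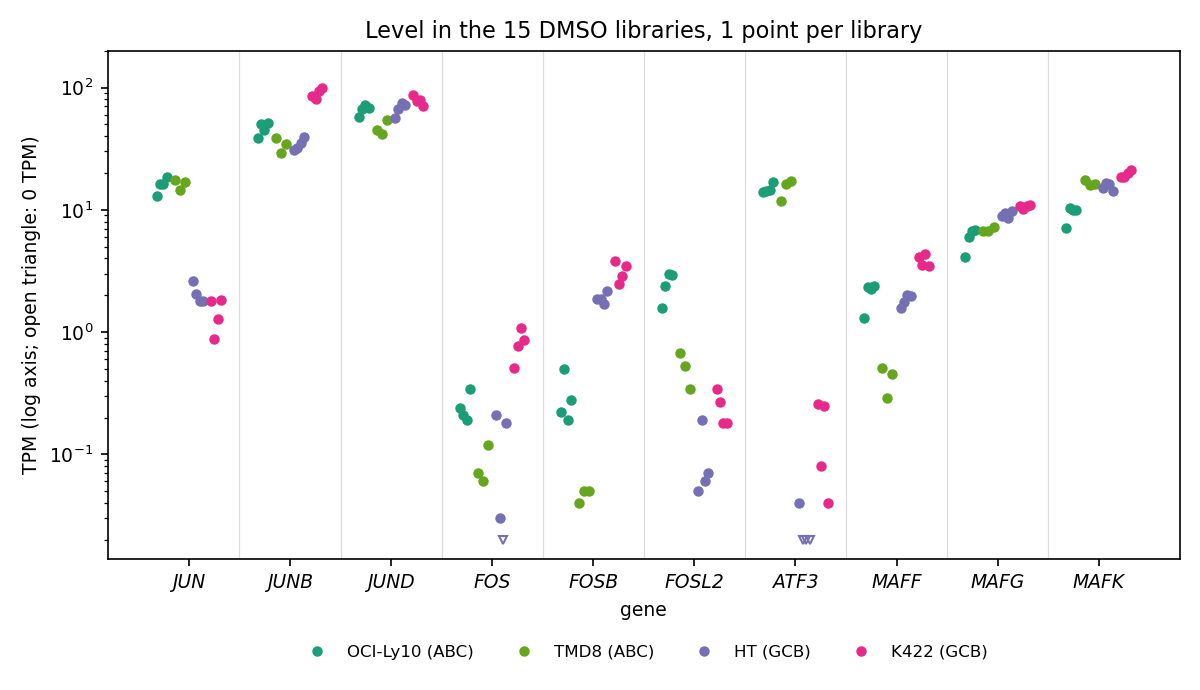
Level of the 10 genes in the 15 DMSO libraries, in TPM on a log axis, 1 point per library and 1 color per cell line, with open triangles for 0 TPM. JUN and ATF3 of OCI-Ly10 and TMD8 sit between 11.8 and 18.7 TPM, above all points of HT and K422, and FOSB is highest in HT and K422.

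JUNB, an AP-1 subunit known from lymphoid cells, was highest in K422, with 81.1 to 99.6 TPM. OCI-Ly10 held 38.3 to 51.6 TPM, TMD8 28.96 to 38.7 TPM and HT 30.8 to 39.5 TPM. K422 exceeded OCI-Ly10 by 0.55 on the log2 scale of counts (SE 0.11, adjusted p = 0.000143). TMD8 and HT overlapped, and their order in counts (HT lower by 0.29, adjusted p = 0.0389) turned to 0.026 on log2(TPM + 1), a scale on which the median of all genes was 0.17 higher in HT. In TPM JUND was the highest member in each DMSO library of OCI-Ly10, TMD8 and HT and in K422 at 6 h, where JUNB led at the other times. JUND stood at 57.1 to 71.9 in OCI-Ly10, 41.6 to 54.5 in TMD8, 56.4 to 75.4 in HT and 70.0 to 86.4 in K422, all in TPM. Lines differed by at most 0.47 on the log2 scale of counts for JUND. In counts HT lay below OCI-Ly10 by 0.24 (SE 0.10, adjusted p = 0.033), a call lost in 4 of 15 fits without 1 library. K422 was not called against OCI-Ly10 (-0.16, SE 0.10, adjusted p = 0.142). The direction turned on log2(TPM + 1), with HT at 0.038 and K422 at 0.25 above OCI-Ly10. The median of all genes moved to 0.17 and 0.29 on that scale, so JUND stayed below the median gene in both.

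FOS genes were low throughout. FOS itself, the partner through which JUN forms the most stable dimers, stayed at or under 1.07 TPM, with 0 to 34 expected counts in the DMSO libraries. FOSB stood at 2.45 to 3.79 TPM in K422 and 1.69 to 2.17 TPM in HT, against 0.19 to 0.50 TPM in OCI-Ly10 and 0.04 to 0.05 TPM in TMD8. TMD8 had 2 or 3 counts of FOSB in each DMSO library. FOSL2 was highest in OCI-Ly10 at 1.56 to 2.99 TPM, followed by TMD8 at 0.34 to 0.67 TPM, with K422 and HT at 0.05 to 0.34 TPM.

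ATF3 lay between 11.8 and 17.1 TPM in the 7 DMSO libraries of the ABC lines. K422 held 1 to 7 counts of ATF3 in each DMSO library. HT held 1 count at 6 h and 0 at 12, 18 and 24 h, and a count of 0 allows up to 3 counts in a library. The ABC lines could not be ordered for ATF3 (log2 difference -0.01, SE 0.14, adjusted p = 0.945).

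Among the small MAF genes MAFK was the most abundant in every DMSO library. It stood at 18.4 to 21.2 TPM in K422, 14.2 to 16.6 TPM in HT, 15.9 to 17.7 TPM in TMD8 and 7.09 to 10.4 TPM in OCI-Ly10, the lowest line. K422 and TMD8 did not differ for MAFK beyond the spread (log2 difference -0.22, SE 0.11, adjusted p = 0.0681). MAFG ranged only from 4.14 to 11.0 TPM over all 15 DMSO libraries. MAFF, the small MAF gene known to respond to stimuli, was highest in K422 at 3.44 to 4.37 TPM and lowest in TMD8 at 0.29 to 0.51 TPM. TMD8 was below OCI-Ly10 by 2.29 on the log2 scale for MAFF (SE 0.27, adjusted p = 5.89e-07). The TMD8 controls had 5 members called lower and 2 higher than OCI-Ly10, against 34.7% and 34.6% of genes. HT had 7 lower and 3 higher than OCI-Ly10 (41.8% and 38.8%) and 5 lower and 2 higher than TMD8 (40.4% and 36%). K422 had 3 lower and 6 higher than OCI-Ly10 (41.5% and 39.4%), 3 lower and 5 higher than TMD8 (40.5% and 36.6%), and 1 lower and 6 higher than HT (33.9% and 34.1%). Each count with HT or K422 includes ATF3 and FOSL2, with 0 to 7 and 3 to 21 counts per GCB DMSO library. Both did not pass the filter in the GCB lines and entered this fit through the ABC libraries. Their calls between K422 and HT are thus not to be read. FOS, with 0 to 6 DMSO counts in HT, 2 to 12 in the ABC lines and 16 to 34 in K422, is also included. It was called lower in HT than in OCI-Ly10 and higher in K422 than in each other line. FOS did not pass the filter in the ABC lines and entered this fit through the K422 libraries, so these calls are not to be read either. An F test over the 4 lines called all 10 members, and 97.3% of the 12596 genes tested were called likewise, so the count says nothing particular about these genes. Between 24 h and 6 h of culture in DMSO, 0 of 10 members were called by edgeR, 0 had an unadjusted p under 0.05 and DESeq2 called 0, against a background of 3.73% lower and 2.37% higher.

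JUN and JUNB fell with AZD8186 in both ABC lines. JUN under AZD8186 stood at 6.21, 4.95, 3.23 and 4.88 TPM in OCI-Ly10 at 6, 12, 18 and 24 h, each below its DMSO library. TMD8 gave 3.78, 6.68 and 11.1 TPM at 6, 18 and 24 h. The 7 AZD8186 libraries (3.23 to 11.1 TPM) and the 7 DMSO libraries (12.98 to 18.7 TPM) did not overlap. Over the ABC lines JUN fell by 1.32 on the log2 scale (SE 0.18, adjusted p = 0.000202, edgeR's quasi-likelihood test), with all 7 pairs lower. The AZD8186 to DMSO ratio was widest in TMD8 at 6 h, at -2.12 on the log2 scale, and narrowest in TMD8 at 24 h, at -0.30.

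JUNB stood at 20.0, 20.8, 15.9 and 19.6 TPM in AZD8186-treated OCI-Ly10 and at 16.4, 15.8 and 16.5 TPM in TMD8. The DMSO libraries of these lines held 28.96 to 51.6 TPM, with no overlap. JUNB fell by 0.99 (SE 0.09, adjusted p = 1.72e-05), and its 7 log2 ratios lay between -1.23 and -0.58. In OCI-Ly10 JUND was 38.1, 37.2, 38.0 and 39.1 TPM with AZD8186 against 57.1, 66.3, 71.9 and 68.6 TPM with DMSO, without overlap. In TMD8 it was 47.2, 39.3 and 33.2 TPM against 45.2, 41.6 and 54.5 TPM, and the ranges overlapped. Over both lines JUND fell by 0.35 (SE 0.11, adjusted p = 0.0292), a call lost in 5 of 7 fits without 1 pair, namely each OCI-Ly10 pair and TMD8 at 24 h (adjusted p 0.0504 to 0.117). Tested per line over all 30 libraries with the pair as a block, JUND fell by 0.61 in OCI-Ly10 (SE 0.16, adjusted p = 0.0105) and its value in TMD8 was -0.01 (SE 0.18, adjusted p = 0.992). The difference between these lines was 0.60 (SE 0.24, adjusted p = 0.312) and was not called.

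**Figure D2:**
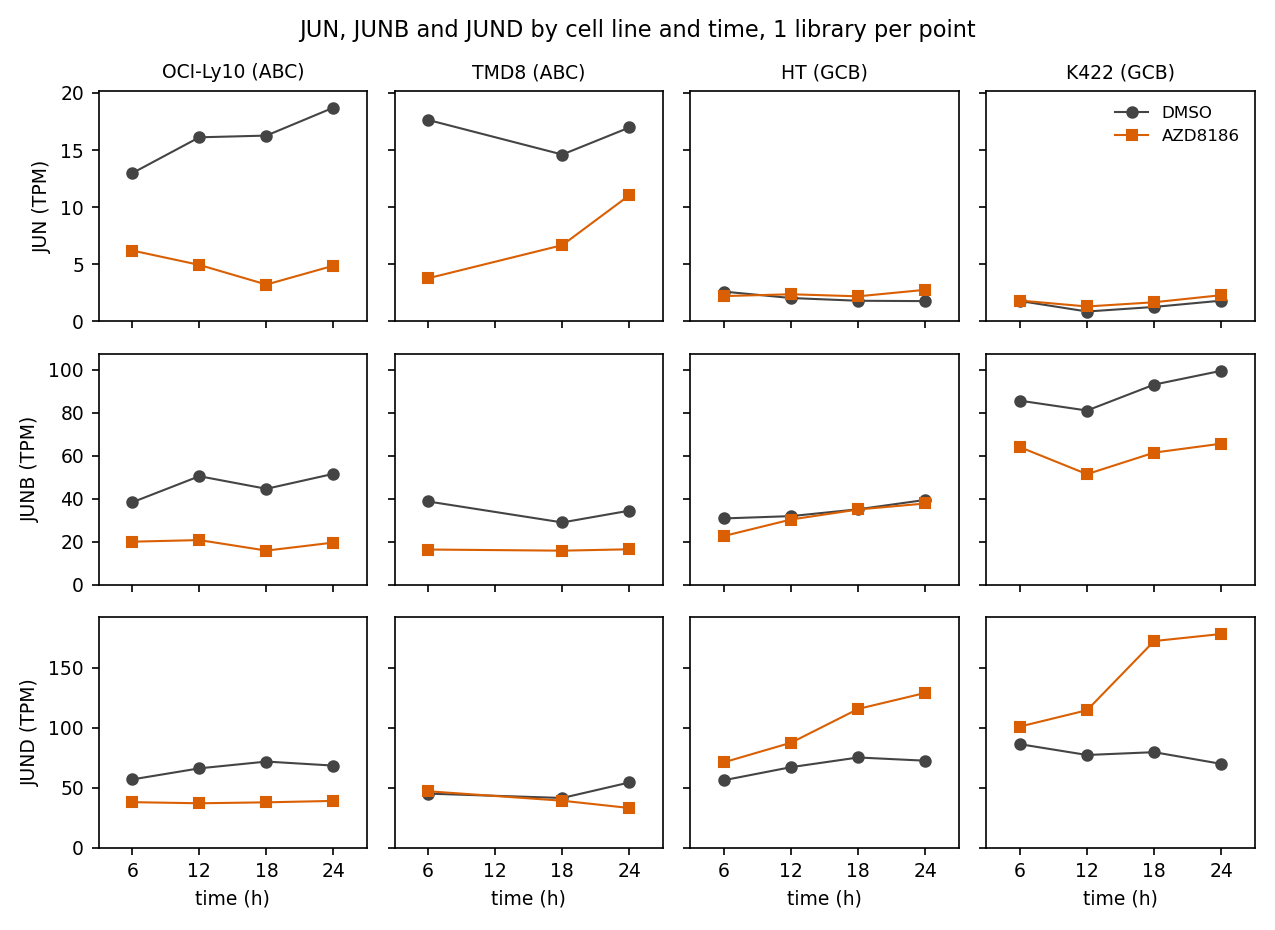
TPM of JUN, JUNB and JUND (rows) against time in hours for each cell line (columns), with DMSO libraries as gray circles and AZD8186 libraries as orange squares, 1 library per point. In OCI-Ly10 and TMD8 every AZD8186 point of JUN and JUNB lies below its DMSO point, and in HT and K422 every AZD8186 point of JUND lies above its DMSO point.

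In all, 6 of the 9 members tested in the ABC lines were called lower (JUN, JUNB, JUND, FOSL2, MAFG and MAFK) and 0 higher. Of all 11419 genes tested, 13.8% were called lower and 15.3% higher. The median log2 change was -0.47 over the 9 members and 0.01 over all genes. With log2(TPM + 1) in limma the median of all genes moved to -0.15, 87.3% of called genes were lower in place of 47.4%, and ATF3 and MAFF were called as well. JUN, JUNB and MAFK were called whichever pair was left out. Without the OCI-Ly10 pair at 18 h or that at 24 h, 3 members were called, since FOSL2 (adjusted p = 0.0563 and 0.0525), JUND and MAFG missed the threshold. With the pair as a block 7 were called lower, MAFF included.

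In the GCB lines JUND rose. In HT, JUND stood at 71.4, 87.7, 116 and 129 TPM with AZD8186 at 6, 12, 18 and 24 h, against 56.4, 67.3, 75.4 and 72.7 TPM with DMSO, and only the 6 h value fell within the DMSO range. In K422 it stood at 101, 115, 172 and 178 TPM against 86.4, 77.4, 79.8 and 70.0 TPM, without overlap. JUND rose by 0.73 over the GCB lines (SE 0.12, adjusted p = 0.000122), with all 8 pairs higher. It rose in HT by 0.58 (SE 0.15, adjusted p = 0.0155) and in K422 by 0.91 (SE 0.16, adjusted p = 0.000141). In HT the call rested on the later times, since the adjusted p was 0.0672 without 18 h and 0.113 without 24 h.

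The JUND ratio was higher at each later time in both GCB lines. It was 0.40, 0.44, 0.59 and 0.90 on the log2 scale in HT, and 0.21, 0.61, 1.23 and 1.59 in K422. The ratio at 18 and 24 h exceeded that at 6 and 12 h by 0.66 (SE 0.15, unadjusted p = 0.000354). After adjustment over 12502 genes edgeR's test did not call it (adjusted p = 0.0874), while DESeq2 did (adjusted p = 0.0126). In that contrast 0 of 10 members were called by edgeR and 3 (JUND, MAFF and MAFG) had an unadjusted p under 0.05, while 0.088% of genes were called higher and 0% lower. In DMSO alone the change of JUND with time was not called (24 h minus 6 h -0.10, SE 0.10, adjusted p = 0.603). In ABC pairs edgeR and DESeq2 called 0 of 10 members between late and early times, against 0.376% higher and 0.224% lower of all genes. In that contrast 1 member, MAFK, had an unadjusted p under 0.05. The contrast pools both ABC lines, so opposite courses can cancel in it. For JUN the log2 ratio was -1.09, -2.06 and -1.64 in OCI-Ly10 at 6, 18 and 24 h. In TMD8 it was -2.12, -0.84 and -0.30 at these times. A change with time within either ABC line was not tested.

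JUNB was lower in K422 at every time. It gave 64.0, 51.4, 61.5 and 65.6 TPM with AZD8186 against 85.7, 81.1, 93.1 and 99.6 TPM with DMSO. In HT the values were 22.7, 30.3, 35.0 and 37.8 TPM against 30.8, 31.9, 35.1 and 39.5 TPM, close to each other after 6 h. JUNB fell by 0.30 over both lines (SE 0.08, adjusted p = 0.00432), by 0.47 in K422 (SE 0.08, adjusted p = 0.000107), and its value in HT was -0.10 (SE 0.08, adjusted p = 0.423). The difference of K422 from HT was -0.37 (SE 0.11, adjusted p = 0.0458), a call that was lost with DESeq2 size factors (0.0571) and in 10 of 15 fits without 1 pair (up to 0.131).

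JUN was low in GCB lines and rose slightly, from 0.87 to 2.61 TPM with DMSO to 1.31 to 2.77 TPM with AZD8186. The ranges overlapped, and 7 of 8 pairs were higher. The change of 0.32 (SE 0.13, adjusted p = 0.0473) missed the threshold with limma-voom (0.0516), with no filter (0.068), on log2(TPM + 1) (0.0761) and in 5 of 8 fits without 1 pair, and it was called in neither line alone. In all, 3 of 8 members tested were called higher in GCB lines (JUN, JUND and MAFF) and 1 lower (JUNB), where 25.9% and 23.5% of 10965 genes were called higher and lower. On log2(TPM + 1), 59.6% of called GCB genes were lower in place of 47.6%. Without the K422 pair at 24 h JUND alone was called higher, with JUN at an adjusted p of 0.0852 and MAFF at 0.0621.

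Among the FOS genes tested in the ABC lines, FOSL2 fell and FOSB was not called (0.26, SE 0.27, adjusted p = 0.495). FOSL2 in OCI-Ly10 stood at 0.53, 1.13, 0.82 and 0.84 TPM with AZD8186 against 1.56, 2.38, 2.99 and 2.92 TPM with DMSO, without overlap. In TMD8 the values were 0.09, 0.45 and 0.47 TPM against 0.67, 0.53 and 0.34 TPM, so only the pair at 6 h was clearly lower. FOSL2 fell by 1.38 in OCI-Ly10 (SE 0.31, adjusted p = 0.00431) and by 1.07 over both lines (SE 0.27, adjusted p = 0.00935), and its value in TMD8 was -0.35 (SE 0.45, adjusted p = 0.641). In the GCB lines it did not pass the filter on low counts, at 3 to 21 counts per library.

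FOS had few reads everywhere. OCI-Ly10 held 8, 6, 6 and 12 counts with DMSO and 3, 0, 0 and 3 with AZD8186. TMD8 held 2, 2 and 4 counts with DMSO and 1, 0 and 0 with AZD8186. The groups did not overlap in either line, yet FOS was too low to be tested in the ABC fit. It passed the filter over 30 libraries only through the GCB libraries. There it was called in OCI-Ly10 (adjusted p = 0.033), but not without a filter (0.0506) or without the pair at 12 h (0.104), 18 h (0.114) or 24 h (0.082). K422 held 16, 22, 34 and 22 counts with DMSO and 10, 18, 25 and 17 with AZD8186, which gave -0.30 (SE 0.36, adjusted p = 0.531).

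FOSB, an AP-1 subunit that also exists as a shortened form, differed between the GCB lines. In K422 it was 2.24, 1.39, 1.86 and 2.15 TPM with AZD8186 against 3.79, 2.45, 2.86 and 3.44 TPM with DMSO, without overlap. In HT it was 2.22, 1.91, 2.66 and 2.62 TPM against 1.88, 1.86, 1.69 and 2.17 TPM, each slightly higher. FOSB fell by 0.62 in K422 (SE 0.15, adjusted p = 0.00246), and its value in HT was 0.35 (SE 0.15, adjusted p = 0.12). The difference between the lines was -0.96 (SE 0.21, adjusted p = 0.00767) and was called whichever pair was left out. In this contrast 2 of 10 members were called lower (JUNB and FOSB) against 6.25% of genes, and 0 higher against 4.99%. The mean change of FOSB over the GCB lines was -0.15 (SE 0.15, adjusted p = 0.423). Per line, 2 of 10 members were called lower in K422 (JUNB and FOSB) against 21% of genes, and 2 higher against 23.5%, of which ATF3 had 1 to 24 counts and passed the filter only through the ABC libraries, which leaves JUND. In HT 1 was called higher (JUND) against 9.62% and 0 lower against 7.73%; 3 members had an unadjusted p under 0.05 there and DESeq2 called 1.

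ATF3 stood at 14.8, 9.82, 10.8 and 13.1 TPM in AZD8186-treated OCI-Ly10 and at 11.7, 7.65 and 11.9 TPM in TMD8, with 11.8 to 17.1 TPM in the 7 DMSO libraries. The ranges overlapped and the change of -0.21 was not called (SE 0.09, adjusted p = 0.102). It was called without the 6 h pairs (-0.32, adjusted p = 0.0215). In K422, ATF3 had 7, 2, 7 and 1 counts with DMSO and 4, 10, 13 and 24 with AZD8186 at 6, 12, 18 and 24 h. These counts are too few for a fold change, and ATF3 did not pass the filter in the GCB lines. In the fit over 30 libraries, which it entered through the ABC libraries, the adjusted p was 0.0211, but 0.0595 without the pair at 12 h, 0.219 without that at 24 h and 0.0623 on log2(TPM + 1). HT had 0 to 3 counts of ATF3 in each library of either treatment.

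Of the small MAF genes, MAFK and MAFG were called lower in the ABC lines and MAFF was not. MAFK stood at 6.16, 6.60, 6.09 and 6.31 TPM with AZD8186 in OCI-Ly10 against 7.09, 10.4, 9.97 and 10.0 TPM with DMSO. In TMD8 it stood at 6.36, 11.0 and 11.6 TPM against 17.7, 15.9 and 16.2 TPM. The ranges did not overlap in either line. In the fit per line the OCI-Ly10 value of -0.38 was not called (SE 0.14, adjusted p = 0.0624). MAFK fell by 0.47 over both lines (SE 0.11, adjusted p = 0.00753). In TMD8 the fall of 0.57 (SE 0.16, adjusted p = 0.0195) rested on the pair at 6 h, without which the value was -0.20 (adjusted p = 0.224).

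MAFG was 3.69 to 5.52 TPM with AZD8186 and 4.14 to 7.24 TPM with DMSO in the ABC libraries, and all 7 pairs were lower. It fell by 0.30 (SE 0.11, adjusted p = 0.0498), a call at the threshold that was lost with DESeq2 size factors (0.0504) and in 5 of 7 fits without 1 pair (0.0752 to 0.102), all but those without a 6 h pair. With the pair as a block MAFG fell by 0.27 in OCI-Ly10 (SE 0.07, adjusted p = 0.012) and by 0.34 in TMD8 (SE 0.08, adjusted p = 0.00774). MAFF went from 1.30, 2.33, 2.25 and 2.37 TPM to 0.87, 1.38, 1.32 and 1.37 TPM in OCI-Ly10. In TMD8 it went from 0.51, 0.29 and 0.45 TPM to 0.35, 0.14 and 0.23 TPM. All 7 pairs were lower, between -0.62 and -0.36 on the log2 scale. The TMD8 pairs rest on few reads, 11 to 17 counts with DMSO and 6 to 13 with AZD8186. The change of -0.54 (SE 0.21) was not called with line and time as terms (adjusted p = 0.0615) and was called with the pair as a block (adjusted p = 0.0121).

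In the GCB lines MAFF went the other way. HT gave 2.23, 1.86, 2.56 and 2.89 TPM with AZD8186 against 1.56, 1.75, 2.02 and 1.99 TPM with DMSO. K422 gave 3.86, 3.26, 5.70 and 7.42 TPM against 4.09, 3.52, 4.37 and 3.44 TPM, higher at 18 and 24 h only. MAFF rose by 0.42 (SE 0.13, adjusted p = 0.0158), with 6 of 8 pairs higher. In the fit per line it was called in neither HT (0.42, SE 0.20, adjusted p = 0.156) nor K422 (0.43, SE 0.18, adjusted p = 0.0569). MAFG and MAFK gave 0.05 (SE 0.05, adjusted p = 0.433) and -0.12 (SE 0.07, adjusted p = 0.167) in the GCB lines.

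**Figure D3:**
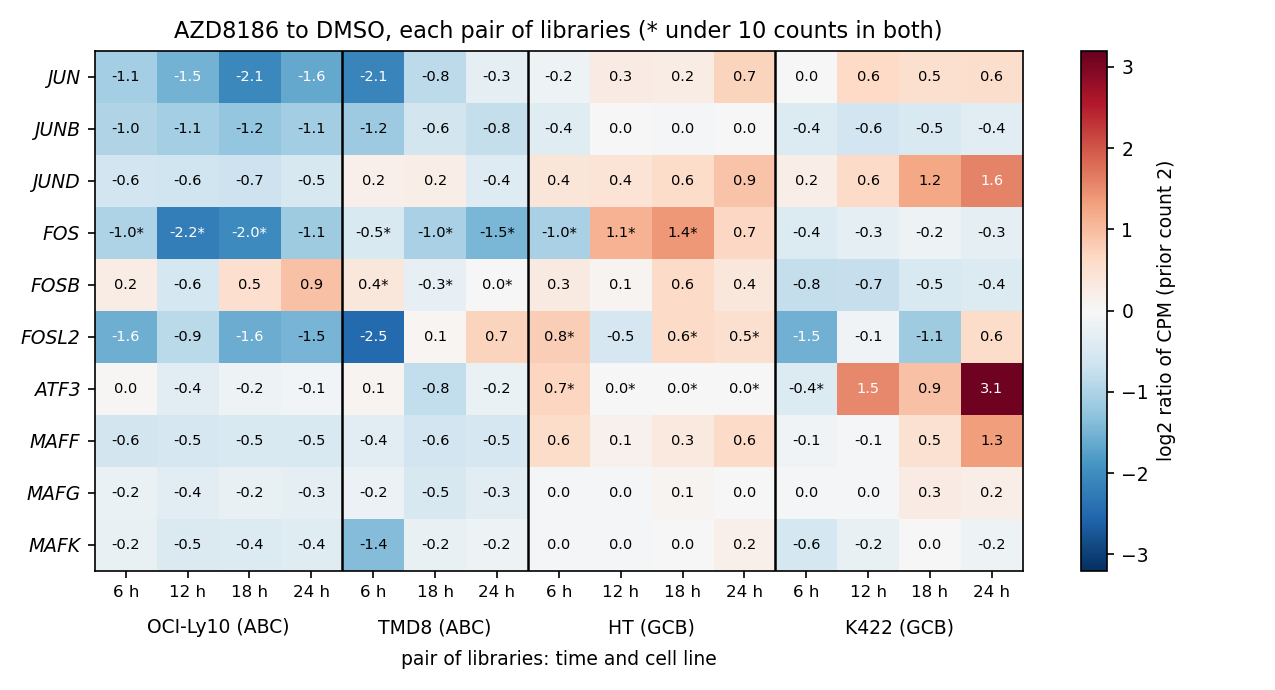
Log2 ratio of CPM (prior count 2), AZD8186 to DMSO, of each of the 10 genes (rows) in each of the 15 pairs of libraries (columns, by cell line and time), blue where AZD8186 is lower and red where it is higher. An asterisk marks pairs with under 10 counts in both libraries. JUN, JUNB, MAFF, MAFG and MAFK are lower in all 7 ABC pairs, as is FOS on 0 to 12 counts per library. JUND is higher in all 8 GCB pairs. The share of all genes that do so is not given.

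Per ABC line, 6 of 10 members were called lower in OCI-Ly10 (JUN, JUNB, JUND, FOSL2, MAFG and, on 0 to 12 counts, FOS) against 11.9% of genes, and 0 higher against 11.7%. In TMD8 4 were called lower (JUN, JUNB, MAFG and MAFK) against 7.97%, and 0 higher against 9.56%. In OCI-Ly10 JUND missed the threshold without the pair at 18 h (0.0571), as did MAFG without that at 12 h (0.0607) or 24 h (0.0596), and in TMD8 MAFG missed it without the pair at 18 h (0.107). Between TMD8 and OCI-Ly10 edgeR and DESeq2 called 0 members, 2 (JUNB and JUND) had an unadjusted p under 0.05, and 0.344% and 0.64% of genes were called lower and higher. On log2(TPM + 1) the lower share of all called genes was 84.5% in OCI-Ly10 in place of 50.4%, 88.6% in TMD8 in place of 45.5%, and 60.6% in K422 in place of 47.1%, with the median of all genes at -0.11 in OCI-Ly10 and -0.15 in TMD8. The TMD8 pair at 6 h decided the comparison of the lines for JUN. Without it JUN fell by 0.56 in TMD8 (adjusted p = 0.0506), and the difference from OCI-Ly10 was 1.01 (adjusted p = 0.0241). That pair also gave the largest FOSL2 and MAFK ratios, and its AZD8186 library held 4.35% ribosomal RNA; the part of this in its ratios was not tested.

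The mean response of the 2 GCB lines differed from that of the 2 ABC lines for JUN, JUNB, JUND, MAFF and MAFG, all higher in GCB lines. The p-values of this contrast reflect the spread among pairs of libraries, not among lines of a subtype. For JUND the values per line were -0.61 in OCI-Ly10, -0.01 in TMD8, 0.58 in HT and 0.91 in K422. With FOS, which had 0 to 12 counts in the ABC libraries and passed the filter only through the GCB libraries, 6 of 10 members were called, where 8.77% of genes were called higher and 7.81% lower. On log2(TPM + 1) the median of all genes in this contrast was 0.10, and 17.1% of called genes were lower in place of 47.1%. The largest difference among genes with ample reads was that of JUN, at 1.65 on the log2 scale (SE 0.24, adjusted p = 0.000192). JUND followed at 1.06 (SE 0.16, adjusted p = 0.000255), MAFF at 0.98 (SE 0.26, adjusted p = 0.016), JUNB at 0.68 (SE 0.09, adjusted p = 4.21e-05) and MAFG at 0.36 (SE 0.07, adjusted p = 0.00207). Of these, MAFF had few reads in TMD8, with 11 to 17 counts with DMSO and 6 to 13 with AZD8186. JUNB thus fell more in ABC lines, and its fall in the GCB lines was called in K422 (-0.47, SE 0.08) but not in HT (-0.10, SE 0.08). FOS (adjusted p = 0.0397) lost the call in 9 of 15 fits without 1 pair, and MAFF lost it without TMD8 at 24 h (0.0521).

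The make-up of the JUN transcripts shifted with these changes. Per length of transcript, the 3 JUN genes summed to 108 to 139 TPM in OCI-Ly10 and 85.1 to 106 TPM in TMD8 with DMSO. With AZD8186 the sums were 57.0 to 64.3 TPM and 60.7 to 67.3 TPM, so the ranges did not overlap in either line. In HT the sum went from 89.9 to 114 TPM with DMSO to 96.2 to 170 TPM, and in K422 from 159 to 174 TPM to 167 to 246 TPM, with overlap at the low end in both. The mean share of JUND in the sum was higher with AZD8186 in every line, and the ranges of the libraries did not overlap. It averaged 51.5% with DMSO and 61.6% with AZD8186 in OCI-Ly10 (n = 4 each), 48.3% and 62.8% in TMD8 (n = 3 each), 65.0% and 74.7% in HT, and 46.2% and 68.7% in K422 (n = 4 each). In K422 the share of JUNB was 52.9% with DMSO and 30.4% with AZD8186, so the larger part passed from JUNB to JUND. JUN made up 12.5% of the sum in OCI-Ly10 and 16.9% in TMD8 with DMSO, but 2.02% in HT and 0.84% in K422.

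**Figure D4:**
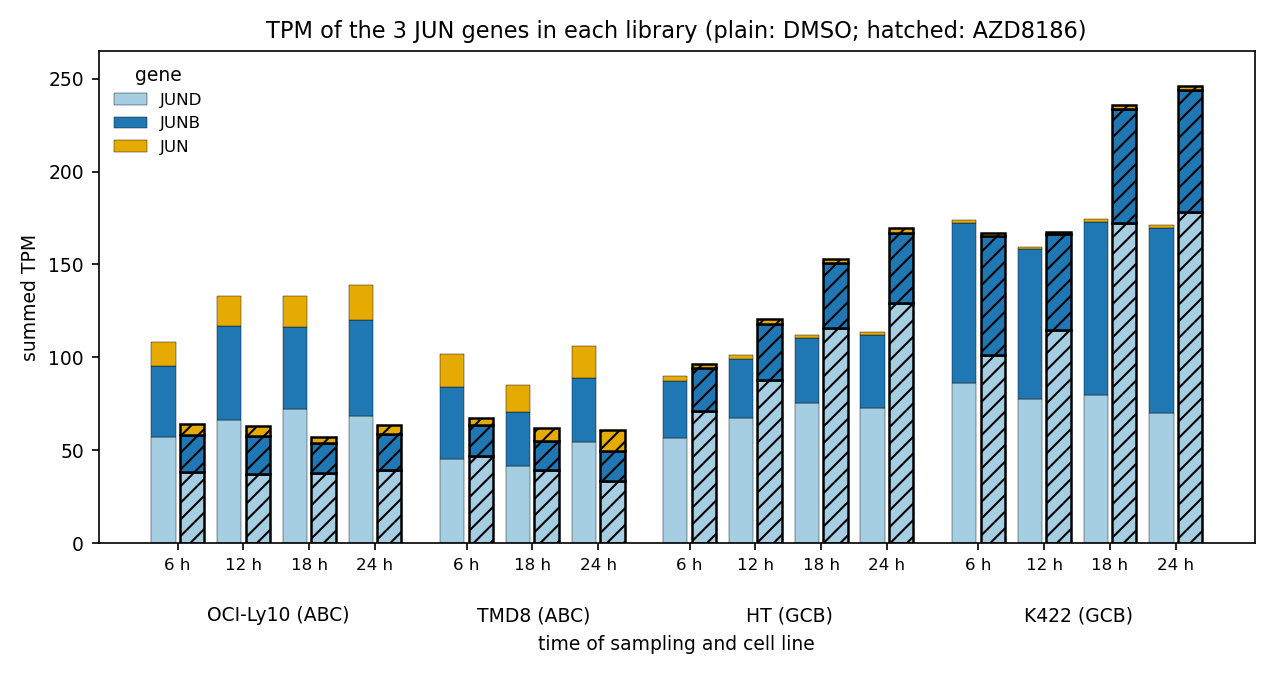
Summed TPM of JUND, JUNB and JUN in each of the 30 libraries, by cell line and time, with plain bars for DMSO and hatched bars for AZD8186. The AZD8186 bars of OCI-Ly10 and TMD8 end at 57.0 to 67.3 TPM, under all their DMSO bars, and those of HT and K422 reach 170 and 246 TPM at 24 h, mostly JUND.

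Other genes of these pathways, on lists drawn up by known function, were called as follows, with the background shares given above for each subtype. Of 8 other AP-1 partners, 5 were tested in ABC lines and 2 were called lower, BATF3 (-1.02, SE 0.18, adjusted p = 0.00117) and BATF (-0.48, SE 0.10, adjusted p = 0.00285), which pair with JUN proteins in lymphocytes. In GCB lines all 3 tested were called higher, among them CREB5 (1.27, SE 0.17, adjusted p = 2.86e-05) and ATF2 (0.27, SE 0.07, adjusted p = 0.00587). A list of 11 genes held partners of small MAF proteins, large MAF factors and KEAP1. Of this list 4 of 7 tested were lower and 1 higher in ABC lines, and 1 of 6 lower and 2 higher in GCB lines. BACH2, a repressor that binds DNA with small MAF proteins and is known in germinal center B cells, fell by 0.67 in ABC lines (SE 0.17, adjusted p = 0.0109) and rose by 3.78 in GCB lines (SE 0.37, adjusted p = 2.54e-06). KEAP1, which holds NRF2 for degradation, fell by 0.16 in ABC lines (SE 0.05, adjusted p = 0.0202). BACH1, a relative of BACH2, rose by 0.84 in GCB lines (SE 0.10, adjusted p = 1.2e-05).

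Of 24 kinases and adaptors upstream of JUN and FOS that were tested, 3 were lower and 2 higher in ABC lines, and 4 were lower and 7 higher in GCB lines. MAP3K1, a kinase of the JNK pathway, rose by 0.69 (SE 0.07, adjusted p = 4.28e-05) and MALT1, a protease in NF-κB signaling, fell by 0.31 (SE 0.06, adjusted p = 0.00272) in ABC lines. In GCB lines MAP2K1, an ERK kinase, rose by 0.24 (SE 0.04, adjusted p = 8.14e-05) and MAP3K8, another kinase of the ERK pathway, fell by 0.49 (SE 0.08, adjusted p = 9.43e-05). Of 7 factors that induce FOS and other early genes, 2 were lower and 1 higher in ABC lines, and 1 lower and 1 higher in GCB lines. SRF, the serum response factor, fell in both (by 0.20, SE 0.05, adjusted p = 0.00915, and by 0.25, SE 0.04, adjusted p = 0.000211). Its coactivators MKL1 (0.24, SE 0.06, adjusted p = 0.00892, ABC) and MKL2 (0.44, SE 0.12, adjusted p = 0.00643, GCB) rose. Of 9 genes for turnover of JUN and FOS protein or mRNA, 0 were lower and 2 higher in ABC lines, and 1 was lower and 2 higher in GCB lines. ITCH, a ubiquitin ligase for JUN proteins, rose in both (0.22, SE 0.06, adjusted p = 0.0117, and 0.19, SE 0.06, adjusted p = 0.00888). USP28, a deubiquitinase, rose in ABC lines (0.24, SE 0.08, adjusted p = 0.035), and ZFP36L2, which promotes decay of mRNAs with AU-rich elements, fell in GCB lines (by 0.27, SE 0.06, adjusted p = 0.00093).

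Of 13 known AP-1 target genes tested in ABC lines, 8 were lower and 1 higher, with a median log2 change of -0.52. The cytokine genes IL10 (-1.78, SE 0.19, adjusted p = 4.93e-05) and TNF (-2.13, SE 0.25, adjusted p = 7.53e-05) had the smallest p. In GCB lines 3 of 7 were lower and 3 higher, with TNF at -2.06 (SE 0.17, adjusted p = 8.01e-07) and VEGFA, a gene for angiogenesis, at -1.13 (SE 0.16, adjusted p = 4.35e-05). These genes are also targets of other factors. Of 16 targets of NRF2 with small MAF proteins, 4 were lower and 0 higher in ABC lines, and 5 lower and 1 higher in GCB lines. SRXN1, which repairs oxidized peroxiredoxins, fell in both (by 0.55, SE 0.08, adjusted p = 0.000242, and by 0.57, SE 0.09, adjusted p = 0.000144). HMOX1, heme oxygenase, fell in ABC lines (by 0.33, SE 0.07, adjusted p = 0.00342) and NQO1, a quinone reductase, in GCB lines (by 0.55, SE 0.09, adjusted p = 0.000125).

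Of 16 other early-response genes tested in ABC lines, 10 were lower and 2 higher, with a median log2 change of -0.50. The zinc-finger genes EGR2 (-2.63, SE 0.26, adjusted p = 3.47e-05) and EGR1 (-2.59, SE 0.28, adjusted p = 4.93e-05) had the smallest p. In GCB lines 2 of 13 were lower and 3 higher, such as the MAP kinase phosphatase gene DUSP2 (-1.08, SE 0.12, adjusted p = 6.3e-06) and KLF6 (0.60, SE 0.08, adjusted p = 2.14e-05). Heat-shock and handling stress genes can move together with JUN and FOS genes. Of 11 tested in ABC lines 8 were lower and 1 higher, and of 12 in GCB lines 8 were lower and 2 higher. Per line, of 12 tested, 8 were lower and 2 higher in OCI-Ly10, 1 was lower and 0 higher in TMD8, 7 were lower and 0 higher in HT, and 8 were lower and 2 higher in K422. Their summed level in OCI-Ly10 was 2810 to 3361 TPM with DMSO and 1431 to 2470 TPM with AZD8186, and 2644 to 3395 TPM and 1647 to 2430 TPM in TMD8. TPM of ABC genes in general was lower with AZD8186, as given above. In HT the list's sum was 3009 to 4535 TPM and 2154 to 3054 TPM, and in K422 3432 to 4640 TPM and 2102 to 2748 TPM. The chaperone gene HSPA8 fell by 0.72 (SE 0.13, adjusted p = 0.0011) and GADD45A, a growth arrest gene, rose by 0.97 (SE 0.18, adjusted p = 0.00142) in ABC lines. DDIT4 (-0.75, SE 0.07, adjusted p = 1.17e-06) and DNAJB1 (-0.61, SE 0.07, adjusted p = 7.81e-06) fell in GCB lines. The part of these genes in the members' values was not tested.

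Across the 15 pairs the log2 ratios of JUN went along with those of JAK1 (Pearson r = 0.958), PRR7 (0.955) and WDR91 (0.954) more closely than with any other of 9568 genes, those averaging 5 CPM or more. For JUNB the closest were NFKBID (0.957), NFATC1 (0.953) and PITPNM1 (0.942). For JUND they were DHX58 (0.937), IFI16 (0.931) and NFKBIL1 (0.926). Among the members, JUN and JUNB had an r of 0.877, JUN and JUND 0.788, and JUND and MAFG 0.812. The 15 points share 4 cell lines and fall into the 2 subtypes, so these values describe the split between subtypes as much as anything within them. A lower level in a bulk library cannot tell apart fewer cells expressing a gene from less RNA per cell.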

How the data were processed

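RNA of the 30 cell line libraries was extracted (NucleoSpin RNA Plus) and, per the submitters' processing notes, aligned with HISAT2 and quantified with RSEM on GRCh38.p12. For the versions and strand settings of these tools, the sources used here give nothing. The authors deposited expected counts per gene (RSEM estimates, not normalized), TPM and FPKM (both scaled to transcript length and library total by the authors). FPKM was not used. RSEM divides reads among similar genes, and 23.65% to 29.25% of genes per library had an expected count that was not whole.

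Groups came from the sample labels. Expected counts were rounded, filtered with filterByExpr, scaled by TMM factors and compared by the quasi-likelihood F test of edgeR 4.0.16 in R 4.3.3, with Benjamini-Hochberg adjustment over all genes tested and a threshold of 0.05. Subtypes were fitted apart with line and time as terms (11419 genes in ABC, 10965 in GCB). Lines and differences were fitted over all 30 libraries with the pair as a block (12502 genes), and baselines over the 15 DMSO libraries (12596 genes). The SE is the log2 change divided by the root of F. FOS did not pass the filter in ABC lines, nor FOSL2 and ATF3 in GCB lines, and all 10 passed in the other fits. Libraries of the same line and time deviated together from their group means by r = 0.137 to 0.31 in each of the 7 ABC pairs. Each group mean, of a line and treatment, spans all times, so a change with time shared by both treatments enters r. It thus cannot show pairing beyond time. The fit with the block is given beside the ABC results it changes. In the GCB pairs r was -0.013 to 0.189, under 0.1 for K422 at 6 and 24 h. Terms stayed as chosen before this check, with no block per subtype. Levels are TPM, compared between genes per length. Pair ratios are log2 CPM with a prior count of 2, and likeness is Pearson's r.

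The alternatives were DESeq2 1.42.0, its size factors in edgeR, limma-voom and limma 3.58.1 on log2(TPM + 1) with a pseudocount of 1, no filter, other terms, the pair as a block, no 6 h pairs, each line alone and each pair left out. The fits were run on simulated counts that held no line, time or pair effects, with changes put into well-read genes only. That run checks the code and says nothing about the calls given here. The members, gene lists, tests and the rule for named genes (all members, and of each other list the 2 called genes with the smallest adjusted p per subtype) were chosen with earlier results of these data known. MRTFA, MRTFB and CCN1 stand under older symbols in the files. Values of some listed genes are not reported here. Python 3.11.15 drew the figures.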

Additional observations from a re-analysis of the deposited data

Results flagged for a closer look

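Among 67 groups of 4 libraries or of 7 or 8 pair ratios with a mean of at least 10 counts, 4 held a value far from the others by Dixon's test, which chance gives in about 1 of 20 groups. At 6 h MAFF in OCI-Ly10 was 0.87 TPM with AZD8186 (others 1.32 to 1.38) and 1.30 TPM with DMSO (others 2.25 to 2.37). MAFK in the same DMSO library was 7.09 TPM (others 9.97 to 10.4). The MAFK ratio of TMD8 at 6 h was -1.38 on the log2 scale, against -0.46 to -0.16 in the other ABC pairs. In the OCI-Ly10 libraries at 6 h both treatments were low for MAFF, so its ratio there, -0.58, was like those of the other times.

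By the test of the difference itself, the response of K422 differed from that of HT for JUNB (-0.37) and FOSB (-0.96). The response of GCB lines differed from that of ABC lines for JUN (1.65), JUNB (0.68), JUND (1.06), MAFF (0.98) and MAFG (0.36), all on the log2 scale. The test also passed FOS, whose fitted difference of 2.55 rests on 0 to 12 counts per ABC library and is not to be read as a size.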

How the results depend on the processing

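With each pair left out in turn, the members called lower in ABC lines numbered 3 to 8 and those higher in GCB lines 1 to 3. In the fit per line the ranges were 4 to 7 lower in OCI-Ly10, 2 to 4 lower in TMD8, 0 to 2 higher in HT, and 2 to 3 lower and 1 to 3 higher in K422. Differences gave 5 to 7 higher for GCB minus ABC, 1 to 2 lower and 0 to 1 higher for K422 minus HT, and 0 to 2 higher for TMD8 minus OCI-Ly10. For baselines, TMD8 minus OCI-Ly10 gave 1 to 2 higher and 4 to 6 lower, HT minus OCI-Ly10 4 to 7 lower, HT minus TMD8 2 to 3 higher and 4 to 5 lower, K422 minus OCI-Ly10 5 to 6 higher and 3 to 4 lower, K422 minus TMD8 4 to 6 higher and 3 to 4 lower, and K422 minus HT 4 to 7 higher. HT had 0 members higher without its pair at 18 h or 24 h, and 2 without K422 at 24 h. K422 had 1 higher without 24 h. HT minus OCI-Ly10 had 4 lower without the DMSO library of HT at 12 h or of OCI-Ly10 at 24 h.

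Each line fitted alone gave 1 member lower in TMD8, 3 higher in HT and 1 higher in K422. On log2(TPM + 1) K422 had 4 lower and 1 higher, TMD8 minus OCI-Ly10 had 1 higher, and the DMSO controls had 1 higher in TMD8 and 4 lower in HT than in OCI-Ly10, and 3 lower and 4 higher in HT than in TMD8. The same scale reversed the sign of JUND in HT (0.038) and K422 (0.25, not called in counts) against OCI-Ly10. It also reversed that of JUNB in HT against TMD8 (0.026). The median of all genes was 0.17, 0.29 and 0.17 higher in these comparisons on that scale. On that scale the median of all genes also moved to -0.14 in late minus early ABC pairs, where 92.5% of called genes were lower in place of 37.3%, and to 0.16 in DMSO at 24 h minus 6 h, with 2.39% in place of 61.2%. The lower share of called genes in the DMSO controls on that scale was 39.8% and 34.7% in HT and K422 against OCI-Ly10, in place of 51.8% and 51.3%, 37.9% and 33.0% against TMD8, in place of 52.9% and 52.5%, and 56.6% for the TMD8 minus OCI-Ly10 response, in place of 35.0%. The causes of these shifts and reversals were not tested. K422 minus HT had 1 lower with DESeq2 size factors, with no filter and without the pair as a block. DESeq2 called 1 member, JUND, in late minus early GCB pairs, and DESeq2 or its size factors left 1 member higher in TMD8 than in OCI-Ly10.

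With the pair as a replicate block in the fits per subtype, 7 members were lower in ABC lines (MAFF adjusted p = 0.0121), and over all genes 1733 were lower and 1861 higher against 1577 and 1750. The block changed no other call of a member in either subtype. FOS in ABC lines and FOSL2 and ATF3 in GCB lines had too few counts for their fold changes to be read. Where a line is left with 2 pairs, the spread was taken from the other libraries.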
